A study of Saccharomyces cerevisiae with 14 samples.

Results

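Transcript levels of the ARV1 mutant isolate SCY820 of budding yeast (Saccharomyces cerevisiae) were set against those of the control isolate SCY328, over all open reading frames on the Ye6100 array. The comparison used 8 of the 14 arrays of the series, chosen by the strain and array format in the labels: 4 chips that together form the SCY820 sample and 4 that form the SCY328 sample. Both isolates are described as having the W303 background and mating type MATa, and the labels give SCY820 as an ARV1 mutant without naming the allele. Both were harvested in mid-logarithmic growth in YEPD, a rich glucose medium, and poly(A) RNA was purified, labelled with biotin and hybridised. The labels give 1 isolate on each side and no number of cultures. There is therefore no replicate of either side and no test, and a difference due to the mutation cannot be told apart from one between these particular isolates, cultures or RNA preparations. A lower signal from fewer cells expressing a gene cannot be told apart from one due to less RNA per cell.

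The Arv1 protein sits in the membrane of the endoplasmic reticulum (ER) and is needed for normal distribution of sterols and for efficient assembly of glycosylphosphatidylinositol (GPI) anchors. Cells that lack it are known for a raised unfolded protein response, in which the ER kinase and endonuclease Ire1 splices the HAC1 mRNA and the Hac1 protein then activates genes for folding, degradation and transport in the ER. Yeast cells under stress also commonly raise a general stress programme driven by Msn2 and Msn4 and lower the genes that make ribosomes.

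Signals are linear and a ratio is log2 of the SCY820 signal over the SCY328 signal, after values under 3.0, the 5th percentile of both columns, were raised to it. Of 5662 genes 4634 had a mean signal above 25.6, the 25th percentile, and were counted, and a difference of at least 2-fold, a log2 ratio of at least 1 or at most -1, was counted as higher or lower. By that measure 725 genes (15.6%) were higher and 198 (4.27%) lower in SCY820, 923 (19.9%) in all. The other 3711 genes lay between. The median log2 ratio of all counted genes was 0.23, with quartiles of -0.25 and 0.73. Differences of at least 4-fold were seen for 114 genes higher and 11 lower in SCY820, and of at least 8-fold for 22 higher and 5 lower.

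The split between higher and lower genes depended on scaling. With both columns brought to the same distribution (quantile normalization) 452 genes were higher and 324 lower, and the higher share of all such genes was 58.2%, beside 78.5% with the deposited scale. Scaling on the bacterial hybridisation controls, transcripts added to every labelled sample, moved the median gene to 1.32 and gave 3126 higher and 11 lower genes. Gene groups are therefore described by their position relative to the median gene, the one at 0.23, and by counts on the deposited scale. Each such count stands beside 15.6% higher and 4.27% lower over all counted genes, so 0 lower genes in a short list says little.

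Several facts of the hybridisations moved with the strains. The 2% trimmed mean signal was 249.7 in SCY820 and 250.1 in SCY328. All 9 hybridisation control probe sets were nevertheless weaker in SCY820, with log2 ratios between -1.38 and -0.81, and for 7 of the 9 the 4 chips of SCY820 lay below all 4 chips of SCY328. CreX-3, one of them, had 1625 ± 188 in SCY820 and 3120.0 ± 639.7 in SCY328 (SD over the 4 chips of each sample). All 10 probe sets for 18S and 25S ribosomal RNA were also weaker without overlap, at -3.75 to -0.77 and -2.38 to -0.81. Scaled on the hybridisation controls, those ranges were -2.66 to 0.32 and -1.29 to 0.28, so that the direction of the rRNA difference was not the same for every probe set. ACT1, the actin gene, had 3276 ± 641 on its 3′ probe set in SCY820 and 3725 ± 197 in SCY328, and its chips overlapped. Its ratio of 5′ to 3′ signal was 0.764 in SCY820 and 0.781 in SCY328. The part of added control RNA and residual rRNA in the gene results was not tested. Over 28 probe sets measured on all chips, the SD of log2 signal over the 4 chips of a sample had a median of 0.24. It describes chips and not cultures, and the 15 bacterial control probe sets other than the hybridisation controls are left out of it.

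**Figure D1:**
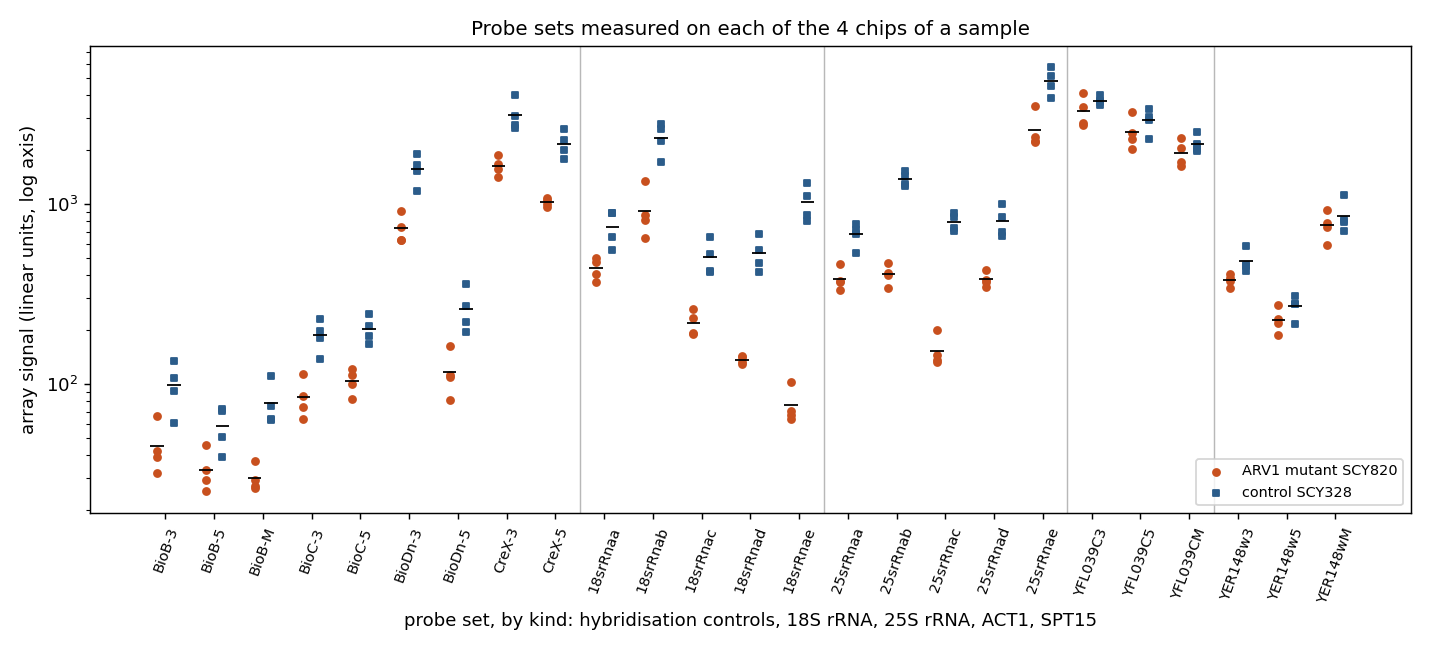
Signals (linear units on a log axis) of probe sets present on each of the 4 chips of a sample, with SCY820 at the left of each pair in orange and SCY328 at the right in blue. Points are chips and black bars are means, and within each rRNA probe set all chips of SCY820 lie below all chips of SCY328, while the ACT1 probe sets overlap.

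ARV1 itself (YLR242C, chromosome XII) had a signal of 1.0 in SCY820 and 33.4 in SCY328. The SCY820 signal lay under the floor of 3.0, and the floored signals differ 11.1-fold. That floor is a percentile and not a limit of detection, so the fold is no bound on the transcript difference. Bacterial control probe sets other than the hybridisation controls read up to 20.4 in SCY820 and 24.2 in SCY328. Its mean signal of 17.2 was below the filter, so ARV1 is not among the counted genes. The direction matches the mutant label. The difference rests on a low control signal, and it vanished with a floor of 50. Among the neighbouring genes by locus number, GPN3 (YLR243W), which encodes a GTPase needed for RNA polymerase II assembly, had 37.7 in SCY820 and 140.1 in SCY328, a log2 ratio of -1.89. CSC1 (YLR241W), on the other side, had 96.5 in SCY820 and 26.9 in SCY328, a log2 ratio of 1.84. VPS34, MAP1, CDD1 and ERF2, the other counted neighbours, had log2 ratios of 0.97, -0.76, -0.68 and -0.09, so that 1 of the 6 counted neighbours was at least 2-fold higher and 1 at least 2-fold lower. Each is 16.7% of the 6, beside 15.6% higher and 4.27% lower over all genes.

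The widest difference upwards was that of ULI1 (YFR026C), a known unfolded protein response gene, with 2147 in SCY820 and 28.2 in SCY328, a log2 ratio of 6.25. SSA3, a stress-induced cytosolic Hsp70 chaperone gene, came next at 242 in SCY820 and 10.5 in SCY328. SHH3, a mitochondrial relative of the succinate dehydrogenase subunit gene SDH3, had 207 in SCY820 and 15.1 in SCY328. The remaining genes among the 15 highest, taken from genes whose brighter signal exceeded 69.5, had log2 ratios of 3.08 to 3.62. Dimmer genes are left out here, such as a general stress gene at 4.12. The 15 belong to several functions. Wall and Golgi genes are GSC2, a catalytic subunit of beta-1,3-glucan synthase, PIR3, a covalently bound wall protein, and KTR2, a mannosyltransferase. GSC2 had 896 in SCY820 and 82.1 in SCY328, a log2 ratio of 3.45. PIR3 was one of the brighter genes of the group, with 3291 in SCY820 and 359 in SCY328. YNR065C, a sortilin-like open reading frame related to the sorting receptor gene VPS10, had 1549 in SCY820 and 164 in SCY328. Vacuolar and transport genes were AMS1, for alpha-mannosidase, and MCH5, for a riboflavin transporter, at log2 ratios of 3.51 and 3.17. Kinase genes were MEC1, of the DNA damage checkpoint, and YPK2, of plasma membrane signalling, at 3.16 and 3.11. YEF1, OYE3 and GPM2 started from SCY328 signals of 5.7, 9.4 and 9.6, which are under the filter of 25.6, as are those of SSA3, SHH3, MEC1 and RRT1, so that these ratios rest on weak control signals.

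Among genes whose brighter signal exceeded 69.5, the lowest ratios were led by genes of the phosphate starvation response. PHO12 and PHO11, for secreted acid phosphatases, had 50.9 in SCY820 and 785 in SCY328 and 69.0 in SCY820 and 919 in SCY328, and their probe sets are marked as cross-hybridising, so the 2 genes may share signal. SPL2, an inhibitor of low-affinity phosphate transport, had 20.8 in SCY820 and 273 in SCY328, a log2 ratio of -3.71. PHO5, the main repressible acid phosphatase gene, had 72.3 in SCY820 and 643 in SCY328, a log2 ratio of -3.15. All 4 were at least 8-fold lower in SCY820. PLB2, a phospholipase B gene, and FET3, for the ferroxidase that works with an iron permease, had log2 ratios of -2.34 and -2.29. Very bright ribosomal protein genes also stood here, on a scale whose largest signal was 10536.4 in SCY820 and 28788.4 in SCY328. The part of that difference in the ratios of the brightest genes was not tested. RPL36A had 5509.6 in SCY820 and 24612 in SCY328, and RPS8A had 8149.5 in SCY820 and 28788 in SCY328. AAH1, for adenine deaminase, had 107 in SCY820 and 356 in SCY328, and MAE1, for the mitochondrial malic enzyme, 161 in SCY820 and 569 in SCY328. The other members of the 15 lowest, HMS2, GPN3, DBP2, GFD2 and the cross-hybridising YAR068W, had log2 ratios between -2.13 and -1.73. The SCY820 signals of SPL2, PLB2, HMS2 and YAR068W, 20.8, 15.5, 25.1 and 22.2, are under the filter of 25.6. Their ratios therefore rest on weak mutant signals. Dimmer genes are left out here too, such as a ribosome biogenesis gene at -2.3.

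**Figure D2:**
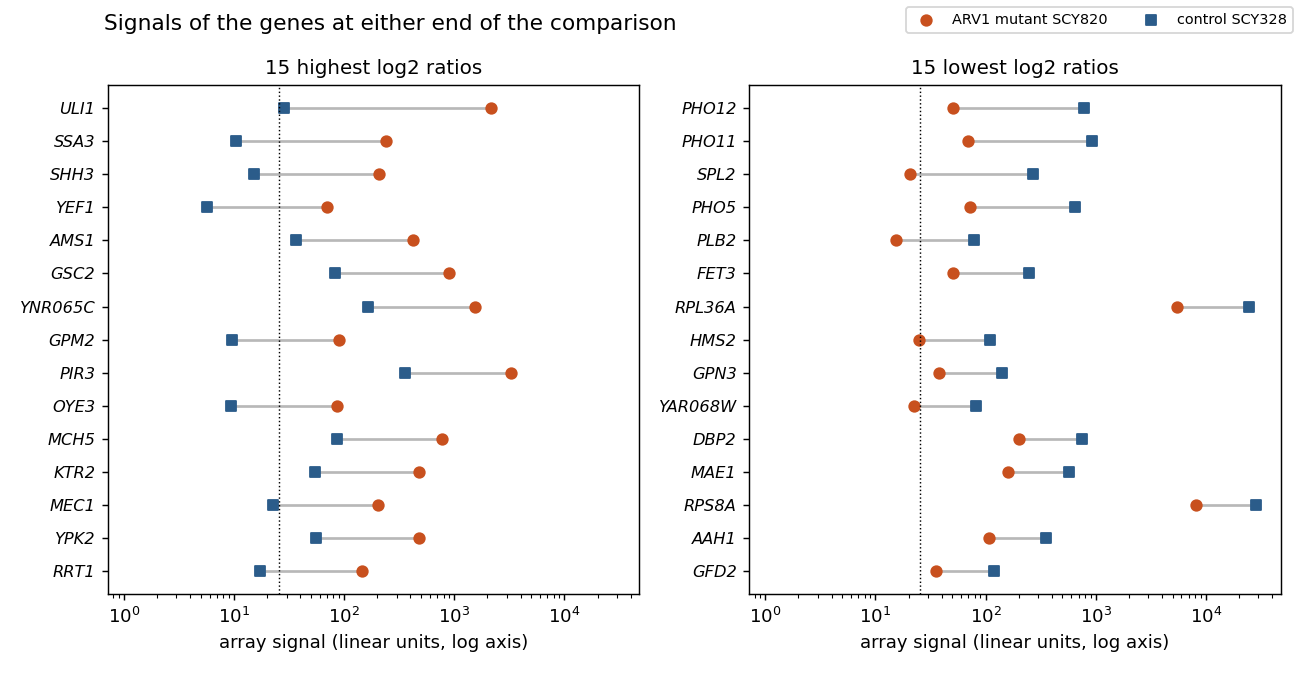
Signals of the 15 genes with the highest and the 15 with the lowest log2 ratio whose brighter signal exceeded the median of 69.5, with SCY820 as orange circles and SCY328 as blue squares on a log axis. The dotted line is the filter of 25.6, and at the left 7 SCY328 signals lie to its left, while at the right all SCY328 signals lie to the right of it. The SCY820 signals of SPL2, PLB2, HMS2 and YAR068W lie to its left.

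ER folding genes stood above the median gene. The 11 genes for Kar2 and its cofactors and for calnexin cycle enzymes were all counted, and the list median was 0.75. Of these 4 (36.4%, beside 15.6% of all genes) were at least 2-fold higher and 0 lower. SIL1, the nucleotide exchange factor of Kar2, had 806 in SCY820 and 153 in SCY328, a log2 ratio of 2.40. JEM1, a DnaJ partner of Kar2, had 197 in SCY820 and 38.5 in SCY328, and LHS1, a second exchange factor, 229 in SCY820 and 88.9 in SCY328. ERJ5, another ER J-protein gene, was the fourth at 1.28. KAR2 itself, the ER Hsp70, had 3254 in SCY820 and 2061 in SCY328, a log2 ratio of 0.66 that is short of 2-fold. CNE1, CWH41 and ROT2, which act on N-glycans in the folding cycle, had -0.22, -0.20 and -0.15 and were the 3 members below the median gene.

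Disulfide formation had the highest share of the ER groups. Of 9 genes, all counted, 6 (66.7%, beside 15.6% of all genes) were at least 2-fold higher and 0 lower, with a median of 1.17. ERO1, the oxidase that passes disulfides to Pdi1, had 496 in SCY820 and 127 in SCY328, a log2 ratio of 1.96. PDI1, the main protein disulfide isomerase gene, had 1845 in SCY820 and 640.3 in SCY328, and FAD1, which makes the flavin cofactor FAD, 125 in SCY820 and 46.7 in SCY328. EUG1 and MPD1, of the isomerase family, had log2 ratios of 1.24 and 1.10. ERV2, a second ER oxidase gene, was the 1 member not above the median gene, at 0.18.

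The response's own signalling genes differed less. HAC1 had 1544 in SCY820 and 919 in SCY328, a log2 ratio of 0.75, and whether the probes tell spliced from unspliced mRNA was not examined here. Of 6 signalling and readout genes 4 were counted, and ULI1 was the 1 at least 2-fold higher. PTC2, a phosphatase that counteracts Ire1, and GCN4 had log2 ratios of 0.27 and -0.16. IRE1 was one of 2 members under the filter, with signals of 9.8 to 9.9 in SCY820 and 7.3 to 13.8 in SCY328 for the pair.

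Downstream secretory groups lay closer to the median gene. For ER-associated degradation 3 of 16 counted genes (18.8%, near the 15.6% of all genes) were at least 2-fold higher and 0 lower, with a median of 0.59. DER1, part of the retrotranslocation channel, had 508 in SCY820 and 91.0 in SCY328, a log2 ratio of 2.48, and DFM1 and USA1 had 1.16 and 1.01. Of 22 genes for GPI anchor synthesis and transfer 20 were counted, 4 (beside 15.6% of all genes) were at least 2-fold higher and 0 lower, and the median was 0.44. MCD4, which adds ethanolamine phosphate to the first mannose of the anchor, had 523 in SCY820 and 129 in SCY328. SPT14, the catalytic subunit of the first step, had 137 in SCY820 and 34.6 in SCY328. GPI18, which adds the second mannose, and GPI14, which adds the first, had log2 ratios of 1.20 and 1.03. In anchor remodelling and p24 cargo receptors 1 of 12 counted genes (8.33%, under the share of all genes) was at least 2-fold higher, ERP2, at 1.65, and the median of 0.26 was next to that of all genes.

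Glycosylation was mixed in the same way. Of 24 counted genes for N-glycan assembly 5 (20.8%, beside 15.6% of all genes) were at least 2-fold higher and 0 lower, with a median of 0.41. DPM1, the dolichol phosphate mannose synthase gene, was the brightest of the 5, with 1591 in SCY820 and 622 in SCY328. ALG7, of lipid-linked oligosaccharide assembly, had a log2 ratio of 1.29. SEC59 and ALG1 had 1.47 and 1.34, from SCY328 signals of 24.5 and 19.0, which are under the filter. In the O-mannosylation and Golgi mannosyltransferase list 5 of 18 (27.8%) were higher, PMT1, PMT3, PMT5, KTR2 and KTR4, and 0 lower, with a median of 0.28. That median lay 0.05 above all genes and 0.03 below them with quantile normalization. PMT5 had 149.5 in SCY820 and 44.0 in SCY328 and PMT3 119 in SCY820 and 44.0 in SCY328. In ER translocation, SEC61, the channel subunit, had 469 in SCY820 and 134 in SCY328, a log2 ratio of 1.80, and SEC66 1.39. These were the 2 of 19 counted genes (10.5%) at least 2-fold higher, and the list median lay 0.04 above all genes, or 0.03 below them with quantile normalization. In the coat list of 18 genes 4 were at least 2-fold higher (22.2%, beside 15.6% of all genes) and 0 lower. These were SEC24, SEC16, SEC12 and SFB3, all of COPII coat assembly at the ER. SEC24 had 995 in SCY820 and 385 in SCY328, a log2 ratio of 1.37, and the COPI genes of the list all lay short of 2-fold.

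Wall synthesis and the cell integrity pathway stood above the median gene as well. The cell integrity pathway carries wall stress from surface sensors through Pkc1 to the kinase Slt2 and the transcription factor Rlm1. Of its 19 genes 16 were counted, with a median of 0.56. Among these 7 (43.8%, beside 15.6% of all genes) were at least 2-fold higher and 0 lower. MTL1, a sensor gene, had 143 in SCY820 and 35.3 in SCY328, and WSC3, another, a log2 ratio of 1.12. PKC1 had 63.6 in SCY820 and 22.1 in SCY328, a log2 ratio of 1.52 from a control signal under the filter. SLT2 had 388 in SCY820 and 170.4 in SCY328, a log2 ratio of 1.19, and RLM1 529 in SCY820 and 184 in SCY328, a log2 ratio of 1.52. KDX1, a kinase gene known as an Rlm1 target, had a log2 ratio of 2.48 from a control signal of 11.6, and MSG5, a phosphatase gene, 1.08. WSC2 and SLG1 (the sensor also called Wsc1) had 0.47 and 0.24.

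In glucan and chitin synthesis 7 of 19 counted genes were at least 2-fold higher (36.8%, beside 15.6% of all genes) and 0 lower. The list median was 0.76. GFA1, the first enzyme of chitin precursor synthesis, had 1629.9 in SCY820 and 296 in SCY328, a log2 ratio of 2.46. CHS7 and SKT5, which bring chitin synthase III out of the ER and activate it, had 1.34 and 1.30. RHO1, the regulatory GTPase of glucan synthase, had 0.17. Among 22 counted wall proteins PIR3, SPI1, PST1 and CRH1 (18.2%, near the 15.6% of all genes) were at least 2-fold higher. SPI1 had 2505 in SCY820 and 801 in SCY328 and PST1 2102 in SCY820 and 726 in SCY328. CCW12, a very abundant wall mannoprotein gene, was the 1 member at least 2-fold lower, with 6718 in SCY820 and 15000.3 in SCY328, a log2 ratio of -1.16. It is 4.55% of the list, near the 4.27% of all genes, and its ratio with quantile normalization is not given here.

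Sterol synthesis did not move by 2-fold at any step. Of 11 counted mevalonate pathway genes 0 were at least 2-fold higher or lower, and of 16 genes from squalene to ergosterol likewise 0. The mevalonate median of 0.09 lay below the median gene on the deposited scale and 0.07 above it with quantile normalization. The ergosterol median was -0.31, and 15 of the 16 lay below the median gene, all but ERG9, for squalene synthase, at 0.32. ERG24, a sterol reductase gene, had 123 in SCY820 and 195 in SCY328, a log2 ratio of -0.67, and ERG3, for the C-5 desaturase, 1225 in SCY820 and 1871 in SCY328. ERG11, for the lanosterol demethylase, had 1253 in SCY820 and 1636 in SCY328, a log2 ratio of -0.38. HMG1 and HMG2, for the reductases of the rate-limiting step, stood apart from each other at -0.25 and 0.96.

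Sterol esterification and transport genes differed one by one. ARE1, one of the sterol acyltransferase genes, had 514 in SCY820 and 140.2 in SCY328, a log2 ratio of 1.88, whereas ARE2, the other, had 31.7 in SCY820 and 38.6 in SCY328, a log2 ratio of -0.28. NCR1, related to the human Niemann-Pick C1 gene, had 333 in SCY820 and 76.6 in SCY328, a log2 ratio of 2.12, and the steryl ester hydrolase gene YEH1 1.06. These 3 were the only ones at least 2-fold higher among 18 counted (16.7%, near the 15.6% of all genes), with 0 lower and a median of 0.39. In the sterol uptake and anaerobic list 6 of 17 counted (35.3%) were at least 2-fold higher and 0 lower. DAN4, an anaerobic wall mannoprotein gene, had 121 in SCY820 and 41.9 in SCY328, and HEM13, of heme synthesis, 387 in SCY820 and 178 in SCY328. AUS1, the sterol importer gene, was under the filter, with 30.1 in SCY820 and 16.1 in SCY328.

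Phospholipid genes included both ends. INO1, which makes inositol phosphate and is the classic gene repressed by inositol and choline, had 72.5 in SCY820 and 11.5 in SCY328, a log2 ratio of 2.66. Its SCY328 signal is under the filter, and with a floor of 50 the log2 ratio was 0.54, short of 2-fold. OPI3, a phospholipid methyltransferase gene of the same regulon, had 3751 in SCY820 and 1517 in SCY328, a log2 ratio of 1.31. HNM1, the choline transporter gene, had 146 in SCY820 and 358 in SCY328, a log2 ratio of -1.30. These 3 apart, the other 16 of 19 counted members lay between, and the list median was 0.14. The 2 higher are 10.5% and the 1 lower 5.26% of the list, beside 15.6% and 4.27% of all genes. GPT2, a glycerol phosphate acyltransferase gene, and PLB1 and PLB3, of the phospholipase B family, were at least 2-fold higher at 1.92, 1.19 and 1.92, while PLB2 was at least 2-fold lower. The SCY328 signals of GPT2 and PLB3, 20.6 and 13.3, are under the filter. In sphingolipid metabolism YPC1, a ceramidase gene, LCB5, a long-chain base kinase gene, and CSH1, of mannosyl inositol phosphoceramide synthesis, were the 3 of 26 counted genes at least 2-fold higher. That share of 11.5% is under the 15.6% of all genes, and the list median of 0.15 lay below the median gene. YPC1 had 726 in SCY820 and 212 in SCY328, a log2 ratio of 1.78. CSH1 had 56.2 in SCY820 and 18.3 in SCY328, the control being under the filter. Of fatty acid genes ACC1, for acetyl-CoA carboxylase, had 206 in SCY820 and 441 in SCY328, a log2 ratio of -1.10, and FAA1, an acyl-CoA synthetase gene, 799 in SCY820 and 370.3 in SCY328. FAA3, another synthetase gene, was the second member at least 2-fold lower, at -1.10. It had 16.5 in SCY820, which is under the filter, and 35.3 in SCY328, so that ratio rests on weak signals. Of the 12 counted fatty acid genes 16.7% were lower and 8.33% higher, beside 4.27% and 15.6% of all genes.

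**Figure D3:**
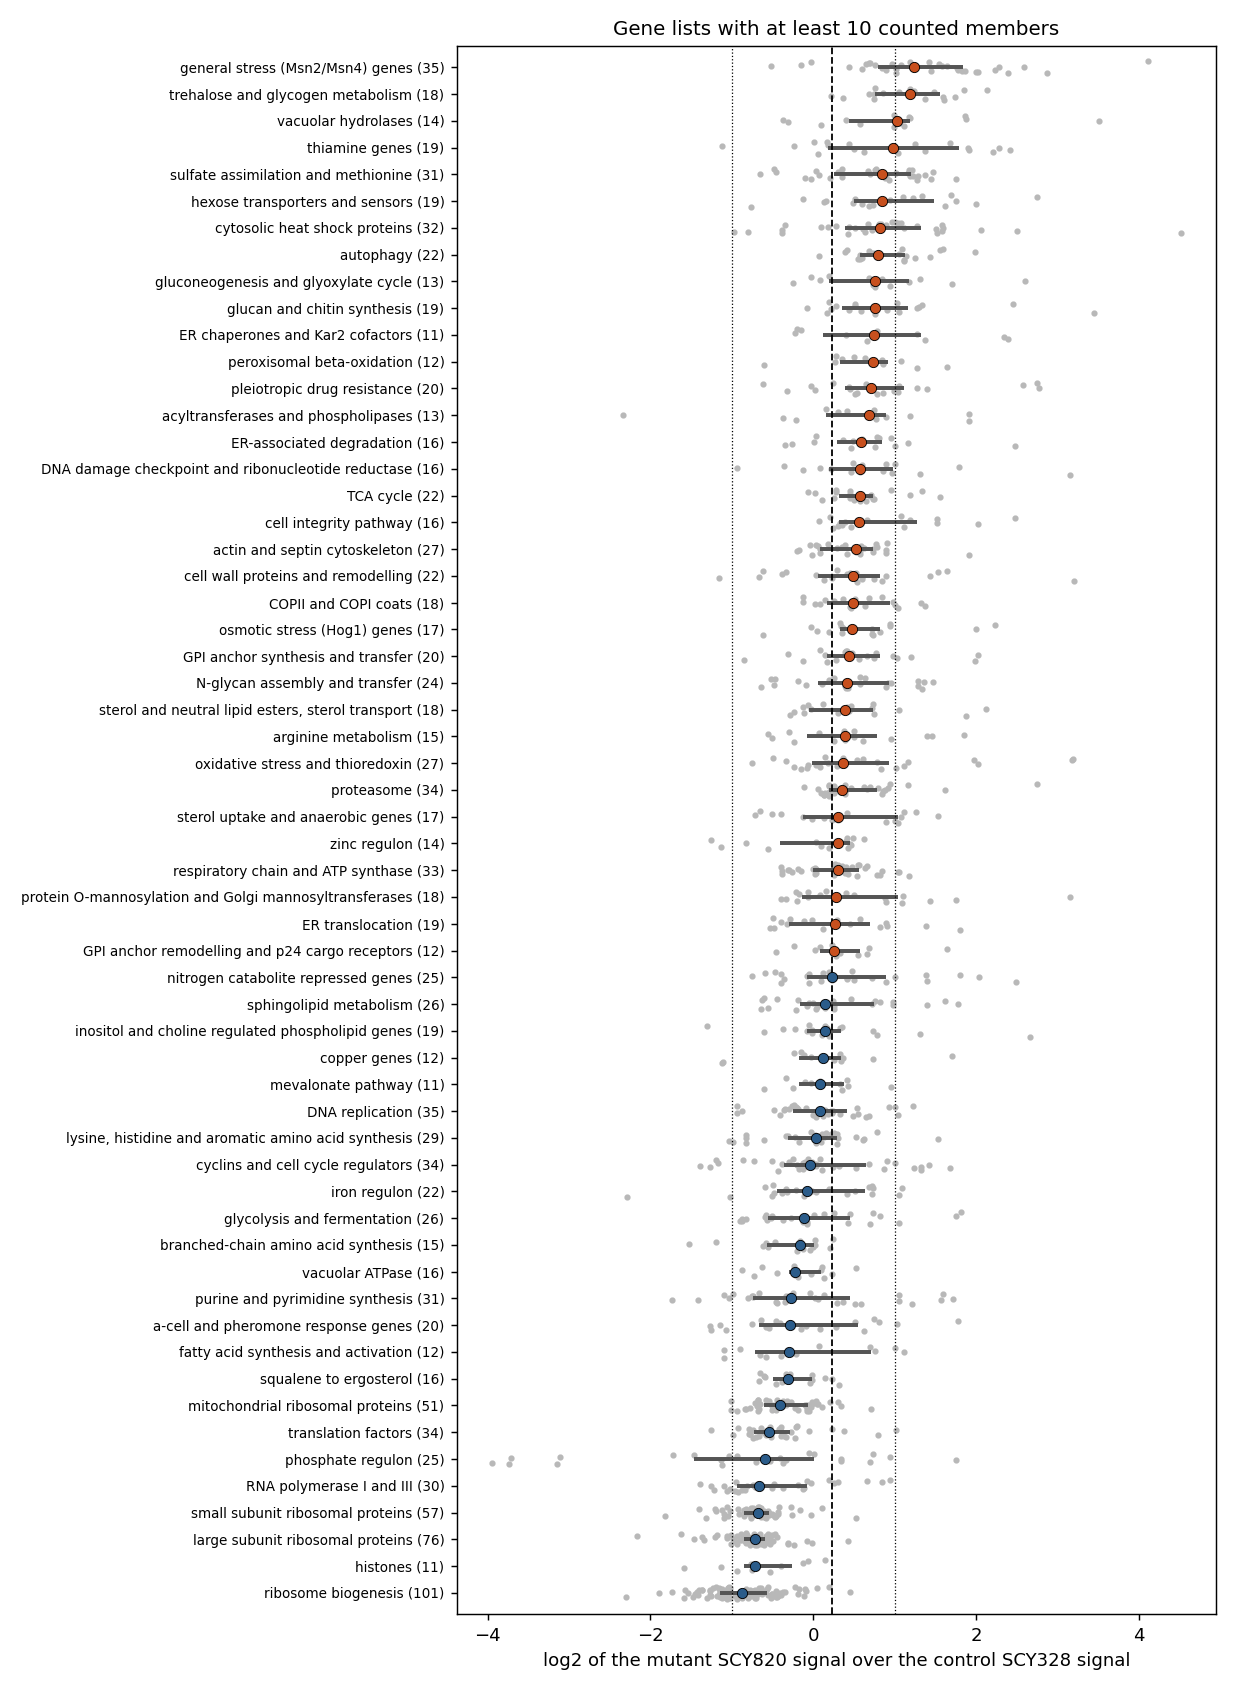
Log2 ratios of the counted members (grey points) of each gene list with at least 10 of them, ordered by list median, with the number counted in parentheses. Bars span the quartiles, large points are medians, in orange above the median gene of 0.23 (dashed) and in blue at or below it, and dotted lines mark 2-fold. General stress and carbohydrate reserve genes are at the top and ribosome biogenesis at the bottom.

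General stress genes made up the group furthest above the median gene among lists of at least 10 counted members. Of 35 counted Msn2/Msn4 genes 23 were at least 2-fold higher (65.7%, beside 15.6% of all genes), 0 were lower, and the median was 1.24. HSP12, a small membrane-binding heat shock protein gene, had 3565 in SCY820 and 488 in SCY328, a log2 ratio of 2.87. XBP1, a stress-induced repressor gene, had 118 in SCY820 and 19.6 in SCY328, and SOL4, of the pentose phosphate pathway, 435 in SCY820 and 83.2 in SCY328. RTN2, a reticulon gene, had a log2 ratio of 2.28. UIP4, at 4.12, had signals of 52.2 in SCY820 and 2.2 in SCY328, the control being under the floor. HOR7, one of the brightest members, went the other way at -0.52, and MSN2 itself had -0.15.

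Reserve carbohydrate genes followed, with 11 of 18 counted members (61.1%) at least 2-fold higher, 0 lower and a median of 1.19. GPH1, for glycogen phosphorylase, had 783 in SCY820 and 179 in SCY328, a log2 ratio of 2.13. TPS1, for trehalose phosphate synthase, had 1082 in SCY820 and 354 in SCY328, and NTH1, for the neutral trehalase, 457 in SCY820 and 136 in SCY328. GSY2, for glycogen synthase, had a log2 ratio of 1.48, so that genes for making and for breaking down both reserves were among those at least 2-fold higher. Cytosolic and mitochondrial heat shock genes had 12 of 32 (37.5%) at least 2-fold higher and 0 lower, with a median of 0.82. HSP26, for a small heat shock chaperone, had 1734 in SCY820 and 417 in SCY328, and SSE2, an Hsp110 gene, 974 in SCY820 and 172 in SCY328. The 5 members with ratios below 0 were SSB1 and SSB2, Hsp70s that bind ribosomes, and SSA2, HSC82 and CPR1, which are abundant in unstressed cells. SSB1 had 4399 in SCY820 and 8590.3 in SCY328, a log2 ratio of -0.97. Together the general stress, heat shock and reserve lists held 85 counted genes, of which 46 were at least 2-fold higher and 0 lower, and 11 lay below the median gene.

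Vacuolar and recycling genes stood higher as well. In the vacuolar hydrolase list 7 of 14 counted genes were at least 2-fold higher and 0 lower, with a median of 1.03. TFS1, an inhibitor of carboxypeptidase Y, had 1209.5 in SCY820 and 334 in SCY328, a log2 ratio of 1.86, and ATG42, a carboxypeptidase homologue, 313 in SCY820 and 85.1 in SCY328. Of 35 autophagy genes 22 were counted, 10 (45.5%) were at least 2-fold higher, 0 lower, and all but ATG12 lay above the median gene. ATG8, whose protein coats the growing autophagosome, had 452 in SCY820 and 166 in SCY328, a log2 ratio of 1.44. The 13 others were under the filter, with signals of 5.0 to 35.1 in SCY820 and 0.6 to 20.1 in SCY328. By contrast 0 of 16 counted vacuolar ATPase genes passed 2-fold, and their median was -0.22. RPN4, the transcription factor of proteasome genes, had 235 in SCY820 and 34.8 in SCY328, a log2 ratio of 2.75. Of 34 proteasome genes RPN4, RPT3 and RPN12 (8.82%, under the 15.6% of all genes) were at least 2-fold higher, and the list median was 0.35.

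Carbon metabolism split between bright glycolytic genes and weaker genes of other fuels. TPI1, for triose phosphate isomerase, had 4164 in SCY820 and 7772 in SCY328, a log2 ratio of -0.90, and FBA1, TDH3 and PGK1, also of central glycolysis, had -0.88, -0.88 and -0.82. GPD2, of glycerol synthesis, PYK2, for the minor pyruvate kinase, and GLK1, for glucokinase, were the 3 of 26 counted members (11.5%, beside 15.6% of all genes) at least 2-fold higher, at 1.82, 1.76 and 1.05. That list had a median of -0.11, which was below the median gene here and 0.13 above it with quantile normalization. Of 13 counted gluconeogenic and glyoxylate genes ADR1, ACS1, CIT3 and SIP4 (30.8%, beside 15.6% of all genes) were at least 2-fold higher. The SCY328 signals of ADR1, ACS1 and CIT3, 15.5, 23.9 and 18.1, are under the filter, so that count rests on weak control signals. The list median was 0.76, but 0.10 with a floor of 50, beside 0.05 for all genes with that floor. ADR1, an activator of genes repressed by glucose, had 93.8 in SCY820 and 15.5 in SCY328, a log2 ratio of 2.60. In the list of hexose transporters and sensors, which also holds maltose genes, 8 of 19 counted were at least 2-fold higher and 0 lower. That share is 42.1%, beside 15.6% of all genes, and 4 members are marked as cross-hybridising. MAL32 and MAL31, of maltose use, were among the 8, at 1.69 and 1.34. HXT2, a high-affinity transporter gene, had 902 in SCY820 and 294 in SCY328, and MTH1, a corepressor of transporter genes, 158 in SCY820 and 46.9 in SCY328, whereas HXT1, a low-affinity transporter gene used at high glucose, had 377 in SCY820 and 644 in SCY328, a log2 ratio of -0.77. In the tricarboxylic acid cycle 19 of 22 genes lay above the median gene, and LSC2, PYC1 and SDH4 (13.6%, beside 15.6% of all genes) were at least 2-fold higher.

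Ribosome biogenesis was the list furthest below the median gene, both on the deposited scale and with quantile normalization. In ribosome biogenesis 44 of 101 counted genes were at least 2-fold lower (43.6%, beside 4.27% of all genes), 0 were higher, and the median was -0.88. Of the 101 only DBP10, at 0.45, lay above the median gene. HAS1, an RNA helicase gene, had 81.7 in SCY820 and 271 in SCY328, a log2 ratio of -1.73. NOP15 had 159 in SCY820 and 479 in SCY328, and RLP7, also of large subunit assembly, 107 in SCY820 and 316 in SCY328. DBP2, a helicase gene, had 201 in SCY820 and 745 in SCY328, a log2 ratio of -1.89. Of 30 genes for RNA polymerases I and III and their factors 6 were at least 2-fold lower and 0 higher, with a median of -0.67. RPA43, a polymerase I subunit gene, had 84.4 in SCY820 and 196 in SCY328, and RPC31, of polymerase III, 76.6 in SCY820 and 182 in SCY328. MAF1, the repressor of polymerase III, was the highest of these at 0.94, with 162 in SCY820 and 84.6 in SCY328.

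Cytosolic ribosomal protein genes were nearly uniform, although fewer passed 2-fold. Of 76 counted large subunit genes 11 (14.5%) and of 57 small subunit genes 11 (19.3%) were at least 2-fold lower, beside 4.27% of all genes. In both lists 0 were higher. The medians were -0.72 and -0.68, with quartiles of -0.85 and -0.59, and of -0.85 and -0.54. Only RPL15B and RPS1B, at 0.43 and 0.53, lay above the median gene among the 133. RPL21A had 7833 in SCY820 and 21640.3 in SCY328, and RPS26A 1972 in SCY820 and 5195 in SCY328. Paralogs of these genes are near-identical, and 26 large and 18 small subunit genes have probe sets marked as cross-hybridising, so single members are uncertain. The shift relative to the median gene was -0.96 and -0.91 on the deposited scale, and -0.22 and -0.17 with quantile normalization. Ribosome biogenesis genes, which are far less bright, had -1.14 with quantile normalization, beside -1.11 on the deposited scale. Mitochondrial ribosomal proteins had a median of -0.41, with 48 of 51 counted genes below the median gene. MRPL8 and MRPS5 (3.92%, near the 4.27% of all genes) were at least 2-fold lower. Of 34 translation factor genes TEF4 was at least 2-fold lower, with 548 in SCY820 and 1302 in SCY328. GCN3, of the eIF2B factor, was at least 2-fold higher, with 110.2 in SCY820 and 54.4 in SCY328. Each is 2.94% of the list, beside 4.27% lower and 15.6% higher over all genes.

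The ratio depended on signal strength only among the brightest genes. In 5 equal bins of mean signal the median log2 ratio was 0.26, 0.28, 0.28 and 0.28 in the lower 4 and 0.00 in the brightest, from 401 upwards. Of its 927 genes 153 are ribosomal proteins or translation factors, with a median of -0.70, and the rest had 0.13.

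**Figure D4:**
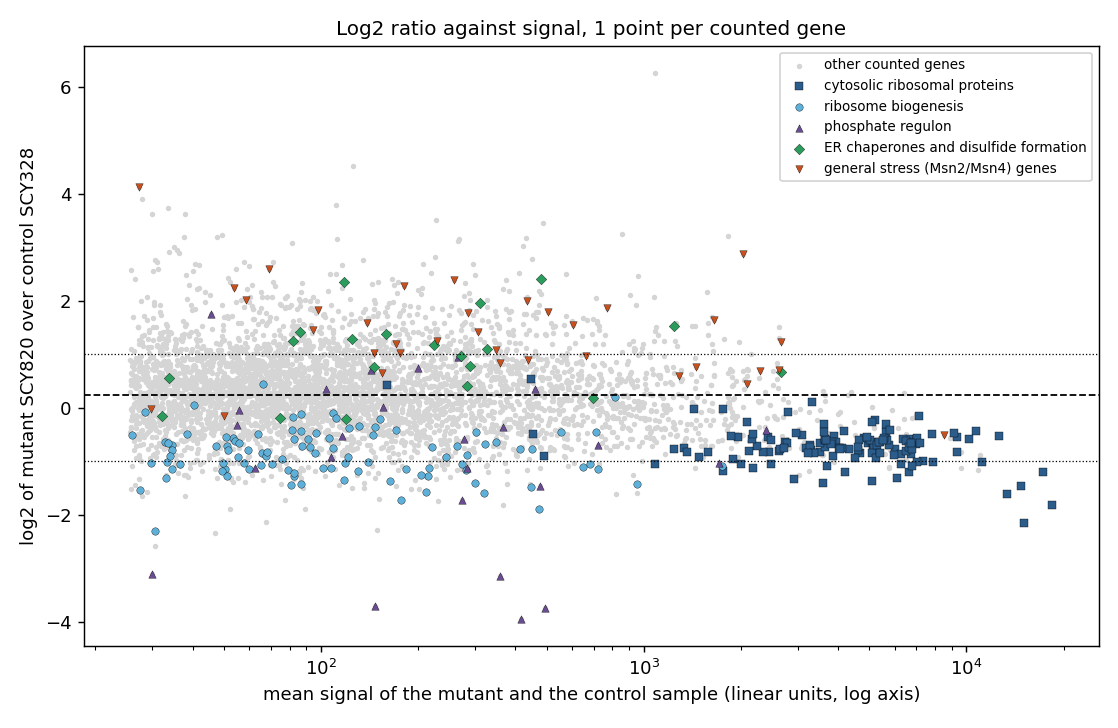
Log2 ratio of SCY820 over SCY328 against the mean signal of both samples on a log axis, 1 point per counted gene. Cytosolic ribosomal proteins lie in a band at high signal around -0.7, all but 1 of the ribosome biogenesis genes lie below the dashed median line at low and middle signal, and general stress and ER genes lie mostly above it.

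Nutrient regulons differed in both directions. The phosphate regulon had 10 of 25 counted genes at least 2-fold lower (40.0%), 1 higher and a median of -0.59. Polyphosphate synthesis genes were among the lower ones, with VTC4, VTC3 and VTC1 at -1.72, -1.47 and -1.04, and PHO81, an inhibitor of the pathway's kinase, had -1.13. PHO84, the high-affinity phosphate transporter gene, had 551 in SCY820 and 897 in SCY328, a log2 ratio of -0.70 that is short of 2-fold. PHO2, a transcription factor of the regulon, was the member higher by 2-fold, at 1.75, from an SCY328 signal of 20.9 that is under the filter. In the iron regulon FET3 and its permease partner FTR1 were at least 2-fold lower. Of its 22 counted genes 9.09% were lower and 9.09% higher, beside 4.27% and 15.6% of all genes. FET3 had 50.7 in SCY820 and 248 in SCY328, and FTR1 110.2 in SCY820 and 223 in SCY328. HMX1, for heme oxygenase, and FRE6, for a vacuolar reductase, were at least 2-fold higher at 1.09 and 1.06, so the regulon did not move one way.

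Sulfur genes stood above the median gene, with 12 of 31 counted (38.7%) at least 2-fold higher, 0 lower and a median of 0.85. MET3, for ATP sulfurylase, had 307 in SCY820 and 91.1 in SCY328, a log2 ratio of 1.75. MET4, the activator of the regulon, had 108 in SCY820 and 39.6 in SCY328, and its cofactor gene MET28 117 in SCY820 and 45.1 in SCY328. Thiamine genes had 9 of 19 counted at least 2-fold higher (47.4%) and 1 lower (5.26%, near the 4.27% of all genes). Of the 19, 8 are marked as cross-hybridising, so the count holds members that may share signal. The list median was 0.98, but 0.62 without cross-hybridising probe sets and 0.50 with a floor of 50. All genes had 0.23, 0.23 and 0.05 in these settings. THI21, of thiamine pyrimidine synthesis, had 119.6 in SCY820 and 24.6 in SCY328, a log2 ratio of 2.28. Members of the THI5 family, near-identical to each other, had 2.42 for THI11, 2.21 for THI5 and 1.91 for THI12 and are marked as cross-hybridising. The SCY328 signals of THI21, THI11 and THI5, 24.6, 16.2 and 20.9, are under the filter. PHO3, a thiamine-repressed acid phosphatase gene, was the 1 lower member, at -1.12. Of 25 counted genes repressed by good nitrogen sources 6 were at least 2-fold higher, and the median equalled that of all genes at 0.23. DAL4, the allantoin permease gene, had 181 in SCY820 and 32.3 in SCY328, a log2 ratio of 2.49, and PUT1, for proline oxidase, 124 in SCY820 and 30.1 in SCY328.

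Amino acid and nucleotide synthesis genes differed from pathway to pathway. In branched-chain synthesis LEU9, an isopropylmalate synthase gene, and OAC1, a mitochondrial carrier gene, were at least 2-fold lower, at -1.53 and -1.19. They are 13.3% of the list, beside 4.27% of all genes. In all 14 of 15 counted members lay below the median gene, with a list median of -0.16. CAR1 and CAR2, of arginine breakdown, had 645 in SCY820 and 235 in SCY328 and 229 in SCY820 and 63.7 in SCY328. HIS4, of histidine synthesis, had 787 in SCY820 and 272 in SCY328, a log2 ratio of 1.53. Purine and pyrimidine synthesis had 6 of 31 genes at least 2-fold higher (19.4%, near the 15.6% of all genes). Its 4 lower genes (12.9%, beside 4.27%) were AAH1, APT1, URA7 and GUA1. IMD2, of guanine nucleotide synthesis, had 228 in SCY820 and 69.2 in SCY328, a log2 ratio of 1.72.

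Drug transport and redox genes included several far above the median gene. RTA1, known for resistance to aminocholesterol, had 786 in SCY820 and 115 in SCY328, a log2 ratio of 2.78. SNQ2, a multidrug transporter gene, had 158 in SCY820 and 60.1 in SCY328. Of 20 counted genes of pleiotropic drug resistance 7 (35.0%) were at least 2-fold higher and 0 lower, with a median of 0.71. GPX1, a glutathione peroxidase gene, had 464 in SCY820 and 114 in SCY328, and YAP1, the transcription factor of the oxidative stress response, 101 in SCY820 and 44.9 in SCY328. In that oxidative stress list 7 of 27 counted (25.9%, beside 15.6% of all genes) were at least 2-fold higher and 0 lower. CUP1-1 and CUP1-2, the metallothionein copies, share signal and had 3631 and 3650 in SCY820 and 7897 and 7896 in SCY328. CRS5, another metallothionein gene, had 246 in SCY820 and 75.2 in SCY328, a log2 ratio of 1.71.

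Mating and cell cycle genes were checked against the labelled mating type. All 7 a-cell markers were counted, and their signals summed to 3556 in SCY820 and 5836 in SCY328. The 4 alpha-cell markers were all under the filter, with sums of 47.0 in SCY820 and 43.1 in SCY328, and the 8 markers of sporulating diploids had 94.5 in SCY820 and 87.4 in SCY328. In the longer list of 7 alpha-cell genes 6 were under the filter. MATALPHA2, the 1 counted, had 536.3 in SCY820 and 326.1 in SCY328, a log2 ratio of 0.72, on a probe set marked as cross-hybridising. MFA2, one of the a-factor genes, had 1779.8 in SCY820 and 4273 in SCY328, a log2 ratio of -1.26, whereas MFA1, the other, had 1295 in SCY820 and 839 in SCY328. STE2, the alpha-factor receptor gene, had 153 in SCY820 and 321 in SCY328, a log2 ratio of -1.07, and STE12 and FAR1, of pheromone signalling, had -1.15 and -1.27. PRM5, a pheromone- and wall-stress-regulated gene, had 593 in SCY820 and 172 in SCY328, a log2 ratio of 1.78. HOP1, of meiotic chromosomes, had 51.7 in SCY820 and 8.8 in SCY328, the control being under the filter, and was the 1 of 5 counted meiotic genes at least 2-fold higher.

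Of 34 counted cyclins and cell cycle regulators 6 (17.6%, near the 15.6% of all genes) were at least 2-fold higher and 4 (11.8%, beside 4.27%) lower. CDC28, the main cell cycle kinase gene, had 707 in SCY820 and 221 in SCY328, a log2 ratio of 1.68, and CLN3, an early G1 cyclin gene, 193 in SCY820 and 77.6 in SCY328. PCL2, FAR1, DSE2 and FKH1 were at least 2-fold lower, at -1.39 to -1.17. All 11 histone genes lay below the median gene, with a median of -0.72. Their shift relative to the median gene was -0.95 on the deposited scale, -0.40 with quantile normalization and -0.62 without cross-hybridising probe sets. HTB2, a histone H2B gene, had 476 in SCY820 and 1434 in SCY328, a log2 ratio of -1.59, and HHT1, of histone H3, 6043 in SCY820 and 13212 in SCY328. RNR3, the damage-induced ribonucleotide reductase gene, had 99.9 in SCY820 and 28.8 in SCY328, a log2 ratio of 1.79, while RNR1 and RNR4 had -0.93 and -0.36.

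Ratios also differed in level between chromosomes. The median was lowest on chromosomes XIV and VIII, at 0.04 and 0.06, and highest on VI and II, at 0.48 and 0.42. The share of genes at least 2-fold higher ran from 10.7% on VIII and XIV to 25.2% on II. The chip of each gene was not used here, and a part of chip differences in these medians was not tested. With each chromosome's own median taken off, 477 genes were higher and 341 lower, close to the 478 and 353 with a single median taken off all genes. For 108 genes with more than 1 probe set the median difference in log2 ratio between probe sets was 0.24 and the 90th percentile 0.73. In 4 of them the difference was at least 1, and 0 genes had one probe set at least 2-fold higher and another at least 2-fold lower.

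**Figure D5:**
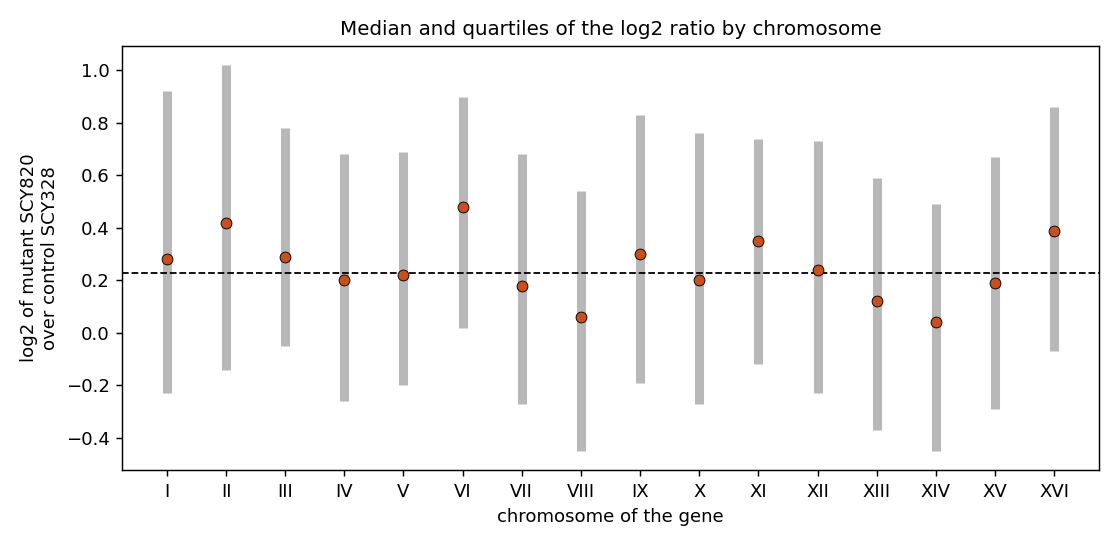
Median (points) and quartiles (bars) of the log2 ratio of SCY820 over SCY328 for counted genes of each chromosome, with the median of all genes as a dashed line. Medians range from 0.04 on chromosome XIV to 0.48 on chromosome VI, which is less than the width of each quartile range.

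Many of the genes that differed belong to none of the 65 lists. Of the 3213 counted genes in no list 494 (15.4%, beside 15.6% of all genes) were at least 2-fold higher and 84 (2.61%, beside 4.27%) lower in SCY820, with a median of 0.27. The 1421 counted genes in lists held 231 of the higher and 114 of the lower ones, with a median of 0.10.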

How the data were processed

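Poly(A) RNA was hybridised to the 4-chip Ye6100 array, per the labels' protocols. Each deposited value is an intensity on a linear scale for 1 probe set, and the submitters' processing notes name MAS5. The sources used here do not state its version, its scaling target or a genome build. Each deposited column joins the 4 chips of 1 sample, per the file headers. The table has 6593 rows, of which 172 are control rows and 6421 name an open reading frame; 5840 of these matched the R64 gene table, giving 5662 genes. Columns of other samples, 1 in this table and 2 in a second one, were not used. Of the 581 probe sets with no match, 143 exceeded the filter, with 26 at least 2-fold higher and 3 lower.

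The signals were used on the deposited scale. They were raised to 3.0, the brightest probe set stood for a gene, and log2 ratios were taken with pandas 2.3.3 and numpy 2.4.6 in Python 3.11.15. Signals listed at 0 number 2 in SCY820 and 0 in SCY328. Arrays carry no depth in reads, and 1 sample a side limits the precision. The 65 gene lists and the comparison were chosen with earlier results of these data known, and 4 entries that named the wrong gene were removed from the lists after the files were read. Genes named are ARV1, the 15 highest and 15 lowest ratios with a brighter signal above 69.5, up to 4 members a list by size of ratio under the same rule, and KAR2, PDI1, ERO1, HAC1, ULI1, INO1, ARE1, ARE2, ERG11, HMG1, PHO5, PHO84, HSP12 and ACT1. Other genes, such as those behind counts of 5 or fewer, were named after seeing their values. The alternatives were other scaling, centring, floor, filter, probe set choice and fold. The scripts were checked on simulated data. Promoter motifs were not analysed here. Figures were drawn with matplotlib 3.10.9.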

Additional observations from a re-analysis of the deposited data

Results flagged for a closer look

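Among 56 sets of 4 chips examined for control probe sets, 1 held a chip far from the other 3. It was the 25S rRNA probe set 25srRnae in SCY820, where 1 chip read 3478 and the set ranged down to 2213, with a mean of 2563 ± 612 (SD, 4 chips), beside 4818 ± 805 in SCY328. The measure takes the gap to the nearest chip over the whole range, and chance alone marks about 1 in 20 such sets. The chip still lay below every SCY328 chip of that probe set.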

How the results depend on the processing

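Beside 725 genes higher and 198 lower in SCY820, quantile normalization gave 452 and 324, centring on the median 478 and 353, and centring by chromosome 477 and 341. A 3-fold limit gave 252 and 27 (279 in all), a 4-fold limit 114 and 11 (125 in all), and scaling on the hybridisation controls 3126 and 11 (3137 in all). That scaling, and leaving out cross-hybridising probe sets, were chosen after seeing the data. The counts were within 1.5 times of the main ones with both other floors, both other filters and the other choices of probe set. The ARV1 log2 ratio was -0.74 with a floor of 20 and 0.00 with a floor of 50, which lies above both signals. Relative to the median gene, large and small subunit ribosomal proteins moved to -0.22 and -0.17 and histones to -0.40 with quantile normalization. Histones moved to -0.62 without cross-hybridising probe sets, and ribosome biogenesis to -0.64 with a floor of 50.

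Some list medians close to all genes changed side. With quantile normalization these were O-mannosylation and ER translocation (both -0.03), the mevalonate pathway (0.07), glycolysis (0.13) and copper genes (0.02). ER translocation had -0.08 with centring by chromosome. With a floor of 50 the mevalonate pathway had 0.04, sterol uptake -0.02, and inositol-regulated and sphingolipid genes 0.09 each. Without a filter galactose genes had -0.20, alpha-cell genes -0.22 and copper genes 0.05. With the stricter filter ER translocation had -0.01, the mevalonate pathway 0.01, sterol uptake -0.02 and zinc genes -0.05. Copper genes had 0.06 without cross-hybridising probe sets. Scaling on the hybridisation controls moved log2 ratios up, and every list median then lay above 0. Ribosome biogenesis had 0.21, and large and small subunit ribosomal proteins 0.37 and 0.41. Genes at least 2-fold lower on the deposited scale that turned above 0 include FTR1, MRPL8, LYS20 and STE2, at 0.07, 0.08, 0.05 and 0.02. The cause of these changes was not tested. No paired analysis was possible because each side has 1 sample. Weak signals limit the ratios of genes whose SCY820 or SCY328 value lies near or under the filter.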

Other observations

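Smaller groups added single genes at either end. Among osmotic stress genes HAL1, of salt tolerance, had 192 in SCY820 and 41.0 in SCY328, a log2 ratio of 2.23, and GRE3, for aldose reductase, had 696 in SCY820 and 174.5 in SCY328. These were the 2 of 17 counted members (11.8%, beside 15.6% of all genes) at least 2-fold higher, and 0 were lower. ABP1, an actin-binding protein gene, had 170.4 in SCY820 and 44.9 in SCY328 and was the 1 of 27 counted actin and septin genes to pass 2-fold. That share of 3.7% is under the 15.6% of all genes. Of 12 counted genes of peroxisomal beta-oxidation SPS19, FOX2 and OAF1 were at least 2-fold higher, at 1.65, 1.27 and 1.08, and 11 of the 12 lay above the median gene. In the zinc regulon ZRC1, a vacuolar zinc transporter gene, had 298 in SCY820 and 653 in SCY328, and IZH4 was the other member at least 2-fold lower, at -1.26. These 2 are 14.3% of the 14 counted zinc genes, beside 4.27% of all genes, and 0 were higher. Respiratory chain genes passed 2-fold only for NDI1, CYC7 and CYT1, at 1.18, 1.05 and 1.04, of 33 counted (9.09%). Of the laboratory marker genes of the W303 background ADE2 had 234 in SCY820 and 100.8 in SCY328, a log2 ratio of 1.22, and the other 6, URA3 and LEU2 among them at -0.75 and -0.62, lay between. ADE2 is 14.3% of the 7 marker genes, near the 15.6% of all genes.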
